A study of Mus musculus with 24 samples.

Results

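This report describes 5 hemoglobin and erythroid genes in the injured mouse brain, namely the adult alpha globins Hba-a1 and Hba-a2, the adult beta globins Hbb-bs and Hbb-bt, and Alas2. They are 5 of the 36333 genes listed and were chosen by symbol after their decrease with PLX3397 had been seen in these mice, so that the decrease itself is given as a description without a test. RNA was sequenced from 24 male C57BL6N mice (strain as labelled; the methods name C57BL/6JRj) aged 12 to 16 weeks, 1 library per mouse. Of these, 20 mice had a controlled cortical impact over the right parietal cortex as a model of traumatic brain injury (TBI), and 4 sham mice had a skin incision without craniotomy. All were killed at day 5. The 5 groups were TBI with vehicle (5 mice), TBI with PLX3397 (5 mice), TBI with Anakinra (5 mice), TBI with PLX3397+Anakinra (5 mice) and sham with vehicle (4 mice). PLX3397, given in chow at 290 mg/kg from 90 min after injury, inhibits the microglial receptor CSF1R and also KIT, the receptor for stem cell factor on blood progenitors. Anakinra, an interleukin-1 receptor antagonist, was injected at 100 mg/kg at 5 min and at 24, 48 and 72 h. The labels call the tissue cortex, whereas the methods describe brain quadrants that also held striatum, dorsal hippocampus and thalamus. The brains were frozen after decapitation, no flushing of the vessels is described, and blood in the vessels or in a bleed therefore belongs to the sample.

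Adult hemoglobin is a tetramer of alpha and beta globin chains, each holding a heme. Red cell precursors in bone marrow and spleen make both chains in balance, and Alas2 is the erythroid form of the first enzyme of heme synthesis, while Alas1 is the form used by other tissues. Circulating reticulocytes keep globin and Alas2 mRNA for a short time after they leave the marrow, and low globin expression by some neurons and glia is also known. Expression is given as TPM (transcripts per 1000000), which scales by transcript length, so that levels can be compared between genes. In bulk tissue, fewer cells of a type and less RNA per cell cannot be told apart.

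Hba-a1 (chr11:32283672-32284486) and Hba-a2 (chr11:32296492-32297310) lie side by side on the plus strand of GRCm38.p6, Hbb-bs (chr7:103826523-103827928) and Hbb-bt (chr7:103812524-103813923) on the minus strand of chromosome 7, and Alas2 (chrX:150547417-150570622) on the plus strand of chromosome X. Each globin transcript has 3 exons, and the Alas2 transcript has 11. The reading frames of Hba-a1 and Hba-a2 differed at 1 of 429 bases, and those of Hbb-bs and Hbb-bt at 1 of 444 bases. Of all 150-base windows, the length of a read, 65.7% of the Hba-a2 transcript were also found unchanged in Hba-a1, and 50.7% of the Hbb-bt transcript in Hbb-bs. The split of reads within each pair is therefore uncertain, whereas no window of Hba-a1 was found in Hbb-bs.

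Upstream sequences are shown because the 5 genes moved together and the choice of genes did not use them. They come from the RefSeq promoter windows, in which all 5 symbols matched, and each is printed up to the earliest annotated transcript start, RefSeq or GENCODE vM21. Capitals mark matches on either strand to a GATA word (AGATAA or TGATAA or AGATAG or TGATAG), to CACCC or CCAAT or TATAA, which are sequences bound by GATA factors, by Klf-type factors, by CCAAT-binding factors and at TATA boxes. The windows of Hba-a1 and Hba-a2 were identical apart from a shift of 3 bases, so only that of Hba-a2 (chr11:32296242-32296488, plus strand) is shown. The others are Hbb-bs (chr7:103828097-103828178, minus strand), Hbb-bt (chr7:103813997-103814173, minus strand) and Alas2 (chrX:150547167-150547374, plus strand).
Hba-a2: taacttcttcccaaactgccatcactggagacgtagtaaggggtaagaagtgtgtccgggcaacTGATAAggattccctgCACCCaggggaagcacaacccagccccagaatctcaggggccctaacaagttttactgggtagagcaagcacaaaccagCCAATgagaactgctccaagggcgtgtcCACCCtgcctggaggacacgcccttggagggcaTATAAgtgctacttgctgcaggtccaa
Hbb-bs: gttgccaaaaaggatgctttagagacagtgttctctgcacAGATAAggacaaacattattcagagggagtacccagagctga
Hbb-bt: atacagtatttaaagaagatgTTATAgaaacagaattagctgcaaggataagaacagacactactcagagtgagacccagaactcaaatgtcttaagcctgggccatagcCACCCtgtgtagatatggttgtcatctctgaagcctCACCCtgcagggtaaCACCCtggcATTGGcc
Alas2: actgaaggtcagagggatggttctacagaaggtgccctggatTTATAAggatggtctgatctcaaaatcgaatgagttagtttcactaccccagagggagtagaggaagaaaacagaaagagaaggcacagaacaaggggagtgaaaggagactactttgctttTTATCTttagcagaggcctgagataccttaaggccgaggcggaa

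In the 250 bases before the RefSeq start, Hba-a1, Hba-a2 and Hbb-bs each held all 4 kinds of word, which was the case for 1.08% of the 32851 mouse promoters in the table. The GATA word began 183 bases before the start in Hba-a1, 186 in Hba-a2, 210 in Hbb-bs and 86 in Alas2. It was not found in Hbb-bt, which held CACCC at 3 places and TATAA at 28 bases before its start. A GATA word was found in 26.5% of all promoters, CACCC in 52%, CCAAT in 33.8% and TATAA in 22.8%. Alas2 had no CCAAT in this window and had CACCC on the other strand at 3 places between 40 and 30 bases before its start. These matches describe letters and not bound sites.

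Hba-a1 was high in every mouse that did not receive PLX3397. Its level in single mice was 720, 483, 1045, 1399 and 1346 TPM with vehicle, 931, 1075, 824, 806 and 856 TPM with Anakinra, and 746, 687, 988 and 1048 TPM in sham. In mice given PLX3397 it was 187, 307, 261, 237 and 357 TPM, and with PLX3397+Anakinra 250, 277, 268, 295 and 320 TPM. The highest PLX3397-treated mouse thus lay below the lowest mouse of each other group. Group means were 999 ± 396 TPM (vehicle), 270 ± 65.2 TPM (PLX3397), 898 ± 110 TPM (Anakinra) and 282 ± 26.8 TPM (combination, each SD with n = 5), and 867 ± 177 TPM in sham (SD, n = 4). By mean level, Hba-a1 ranked 102nd of all genes with vehicle and 616th with PLX3397. Hba-a2, the neighbouring alpha globin gene, ranged from 374 to 1082 TPM with vehicle, from 617 to 764 TPM with Anakinra and from 535 to 770 TPM in sham. It ranged from 170 to 268 TPM with PLX3397 and from 182 to 237 TPM with the combination, again without overlap.

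**Figure D1:**
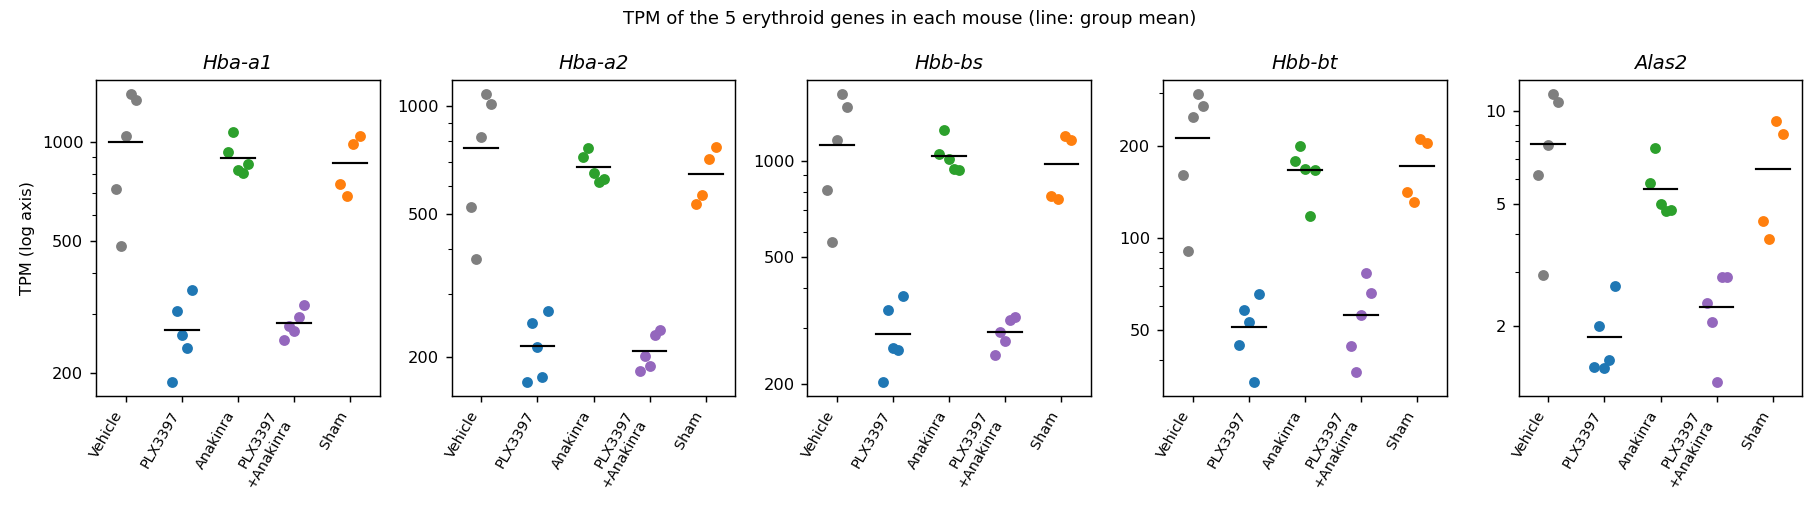
TPM of the 5 erythroid genes in each mouse on a log axis, 1 point per mouse, with a line at the group mean (n = 5 per TBI group and n = 4 sham). In every panel all points with PLX3397 or PLX3397+Anakinra lie below all points of the other 3 groups, and the vehicle points are the most spread.

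Hbb-bs, the more abundant adult beta globin gene, showed the same order. It was 811, 556, 1159, 1617 and 1469 TPM in the vehicle mice, 1052, 1246, 1014, 939 and 934 TPM with Anakinra, and 775, 756, 1198 and 1164 TPM in sham. It was 203, 342, 258, 255 and 378 TPM with PLX3397 and 245, 290, 271, 317 and 324 TPM with the combination. Both PLX3397-treated groups were low in every mouse and overlapped each other. Hbb-bt, the second adult beta globin gene, ranged from 90.8 to 297 TPM with vehicle, from 119 to 201 TPM with Anakinra and from 131 to 211 TPM in sham, against 33.9 to 66.0 TPM with PLX3397 and 36.6 to 77.2 TPM with the combination. The 4 globins together took 0.310% of all TPM with vehicle, 0.278% with Anakinra and 0.266% in sham, and 0.0823% with PLX3397 and 0.0836% with the combination.

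Alas2 was expressed at a far lower level than the globins. It was 6.19, 2.94, 7.78, 11.3 and 10.7 TPM with vehicle, 5.86, 7.58, 4.99, 4.74 and 4.78 TPM with Anakinra and 4.38, 3.84, 9.30 and 8.45 TPM in sham. With PLX3397 it was 1.47, 2.00, 1.46, 1.56 and 2.70 TPM, and with PLX3397+Anakinra 2.37, 2.07, 1.32, 2.90 and 2.90 TPM. The lowest vehicle mouse (J17B, 2.94 TPM) exceeded the highest mouse of the combination (2.90 TPM) by little, while the other vehicle mice stood well above. In J17B each of the 5 genes was at its vehicle minimum. That mouse was the lowest vehicle mouse in 25.5% of all genes tested, and J19B, the highest vehicle mouse in the 5 genes, in 25.7%. The animal numbers of the vehicle mice alone end in B, and whether this marks a batch cannot be told apart from the vehicle treatment.

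For the difference between groups, log2 fold changes of TPM + 1 with standard errors (SE) were taken from 1 limma fit across all 17267 genes averaging 0.5 TPM or more, a filter that all 5 genes passed. PLX3397 versus vehicle gave log2 fold changes of -1.81 (SE 0.21) for Hba-a1, -1.74 (SE 0.20) for Hba-a2, -1.90 (SE 0.21) for Hbb-bs, -1.95 (SE 0.26) for Hbb-bt and -1.54 (SE 0.25) for Alas2. The mean TPM of Hba-a1 was 3.70-fold lower with PLX3397 than with vehicle, and that of Alas2 4.24-fold lower. PLX3397+Anakinra versus Anakinra, which shares no mouse with the first comparison and does not use the vehicle mice, gave -1.66 (SE 0.21), -1.70 (SE 0.20), -1.84 (SE 0.21), -1.58 (SE 0.26) and -1.00 (SE 0.25) in the same order. Alas2 was 2.42-fold lower there by mean TPM. The added 1 TPM understates the log2 fold change of a gene as low as Alas2, which was -1.92 and -1.27 with 0.1 TPM added instead. All 5 genes were without overlap in both comparisons, as were 4.91% of all genes tested, lower with PLX3397 than vehicle, and 7.26%, lower with the combination than Anakinra.

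The decrease with and without Anakinra was close for the alpha globins and Hbb-bs and less so for Hbb-bt and Alas2. The difference of both decreases was 0.15 (95% confidence interval -0.47 to 0.76) on the log2 scale for Hba-a1, 0.04 (-0.55 to 0.63) for Hba-a2, 0.06 (-0.56 to 0.69) for Hbb-bs, 0.37 (-0.38 to 1.12) for Hbb-bt and 0.54 (-0.19 to 1.26) for Alas2. Each interval includes 0 and is wide beside the decreases themselves. Across all genes tested, limma called 0.00% for this interaction, 0 genes in either direction at an adjusted p below 0.05, and 1395 at an unadjusted p below 0.05.

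**Figure D2:**
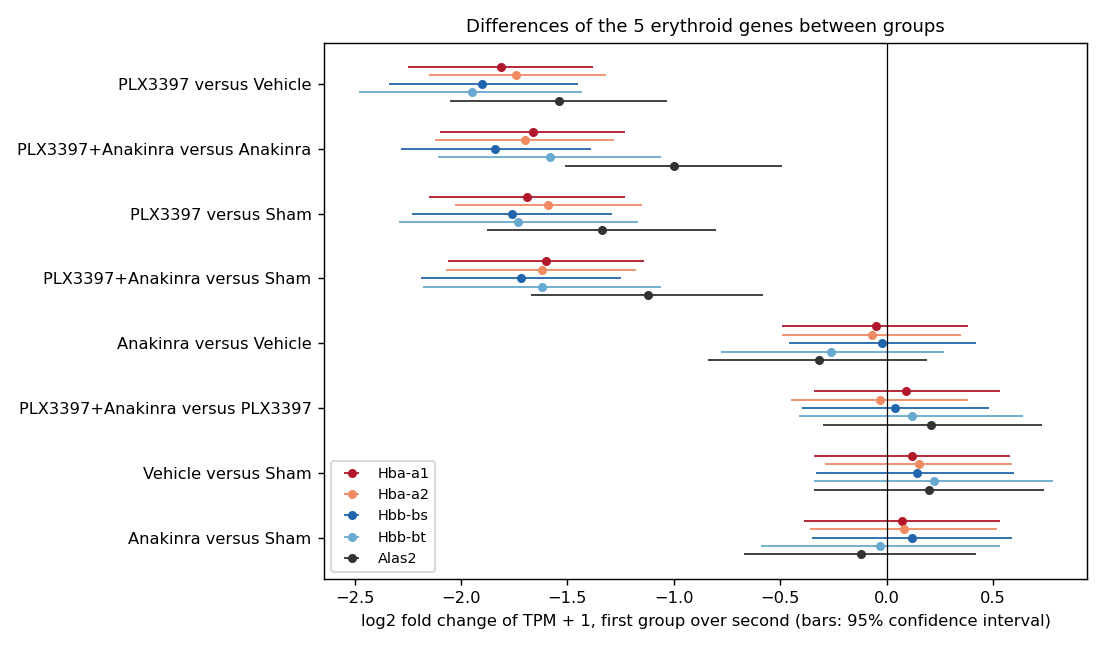
Log2 fold change of TPM + 1 of the 5 erythroid genes in 8 comparisons, as points with 95% confidence intervals from the limma fit. The 4 comparisons of a PLX3397-treated group with a group not given PLX3397 lie between -1.95 and -1.00, and the other 4 lie between -0.32 and 0.22.

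The levels of these genes in TBI mice without PLX3397 lay close to those in sham. The comparison of Anakinra-treated TBI mice with sham holds no PLX3397-treated mouse. The Anakinra values may still have entered the choice of genes. Against vehicle, the study listed all 5 as changed with PLX3397 and with the combination but not with Anakinra. The log2 fold change of Anakinra versus sham was 0.07 (SE 0.22, adjusted p = 0.823, limma) for Hba-a1, 0.08 (SE 0.21, adjusted p = 0.78) for Hba-a2, 0.12 (SE 0.23, adjusted p = 0.689) for Hbb-bs, -0.03 (SE 0.27, adjusted p = 0.927) for Hbb-bt and -0.12 (SE 0.26, adjusted p = 0.715) for Alas2. None of the 5 was called, against 25.1% of all genes tested called higher and 29.2% called lower. The 95% confidence intervals ran from -0.39 to 0.53 for Hba-a1 and from -0.67 to 0.42 for Alas2, so changes inside these intervals are not excluded. Vehicle mice against sham gave log2 fold changes of 0.12 to 0.22 as a description, with a median of 0.15 that was 0.38 without vehicle mouse J17B and 0.00 without J19B. Both PLX3397-treated groups were below sham, by -1.59 (SE 0.21) for Hba-a2 and -1.34 (SE 0.26) for Alas2 with PLX3397 alone, and by -1.62 (SE 0.21) and -1.12 (SE 0.26) with the combination. In order of the mean, the summed globins reached 3099 ± 1229 TPM (vehicle), 2778 ± 319 TPM (Anakinra), 2658 ± 568 TPM (sham), 836 ± 94.8 TPM (combination) and 823 ± 188 TPM (PLX3397), as mean ± SD with n = 5 and n = 4 for sham. The values of single mice overlapped among the first 3 groups of this order and between the last 2.

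The proportions among the genes were then compared within each library, since the choice of genes does not fix the direction of a ratio. The ratio of alpha to beta globin TPM was 1.28, 1.32, 1.32, 1.30 and 1.36 in the vehicle mice and 1.44, 1.39, 1.52, 1.43 and 1.41 with PLX3397, without overlap. The mean log2 ratio was higher by 0.13 with PLX3397 (exact two-sided permutation p = 0.00794, the smallest that 5 against 5 mice can give), and the adjusted p over all 16 ratio comparisons was 0.127. With PLX3397+Anakinra the ratio was 1.42 ± 0.064 (SD, n = 5) against 1.31 ± 0.0481 (SD, n = 5) with Anakinra, and the mean log2 ratio was higher by 0.12 (exact two-sided permutation p = 0.0317, adjusted p = 0.254). Both differences had the same sign in mice that do not overlap between the comparisons, and neither passed after adjustment. A single comparison at the smallest possible p has an adjusted p of 0.127 over 16 tests, so the design could hardly reach the threshold. In sham the ratio was 1.34 ± 0.0925 (SD, n = 4), with a range from 1.21 to 1.41 that reached into both.

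None of the other ratio comparisons passed after adjustment. Hba-a2 stood at 0.762 ± 0.0454 (SD, n = 24) of Hba-a1 over all mice, and Hbb-bt at 0.180 ± 0.0283 (SD, n = 24) of Hbb-bs. Per 1000 TPM of globins, Alas2 gave 2.46 ± 0.321 TPM (vehicle), 2.23 ± 0.268 TPM (PLX3397), 2.00 ± 0.187 TPM (Anakinra) and 2.75 ± 0.655 TPM (combination), each as mean ± SD with n = 5. Its mean log2 difference was -0.14 for PLX3397 versus vehicle (exact permutation p = 0.262, adjusted p = 0.521) and 0.43 for the combination versus Anakinra (exact permutation p = 0.0714, adjusted p = 0.317). With 1 TPM added to both terms the first turned to 0.30 (exact permutation p = 0.0238) and the second moved to 0.73 (exact permutation p = 0.00794), and neither passed after adjustment. The Hbb-bt to Hbb-bs and Hba-a2 to Hba-a1 ratios had adjusted p values from 0.317 to 0.81 in their 8 exact permutation tests.

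**Figure D3:**
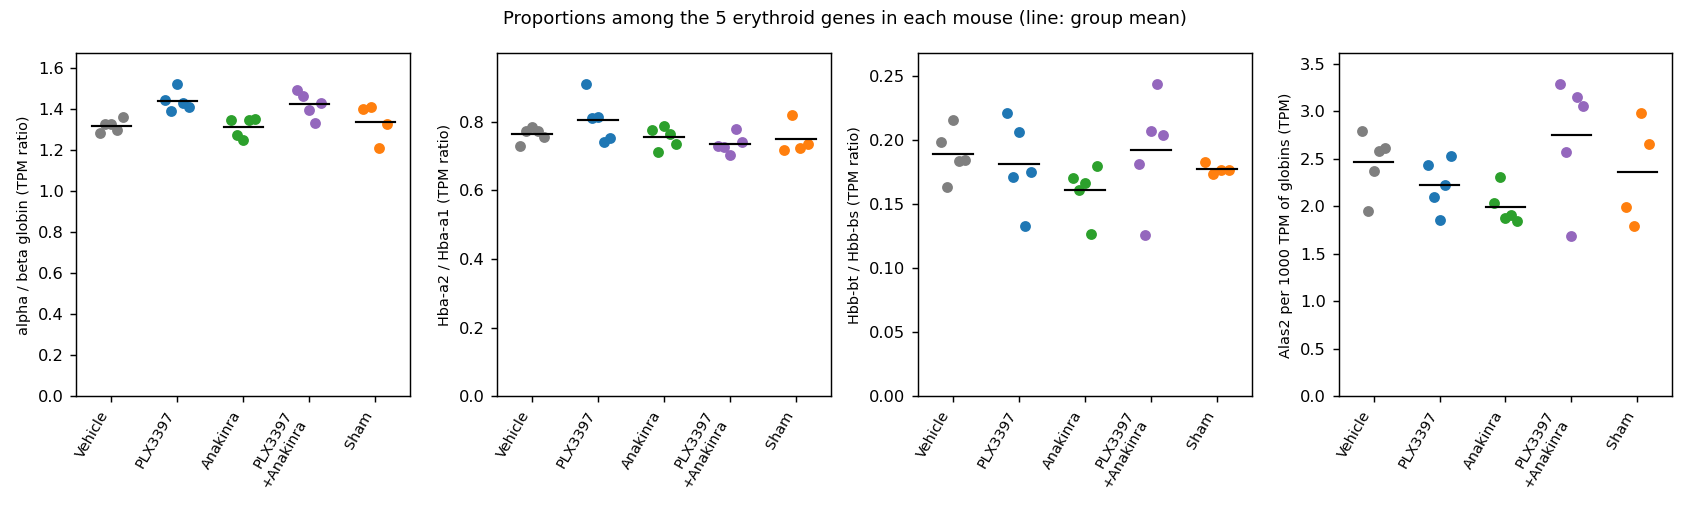
Ratios of TPM among the 5 erythroid genes in each mouse, with a line at the group mean (n = 5 per TBI group and n = 4 sham) and axes from 0. The alpha to beta globin ratio of the PLX3397 mice (1.39 to 1.52) lies above that of the vehicle mice (1.28 to 1.36), and the groups overlap in the other 3 panels.

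Other genes of red cell precursors were near 0 or followed another course. The 5 lists of further globins, heme synthesis enzymes, red cell membrane proteins, late maturation genes and erythroid regulators held 74 genes, of which 70 were listed and 48 passed the filter. Ahsp, the chaperone of free alpha globin, was among the 4 genes not analysed here. The 22 genes below the filter had mean levels of at most 0.403 TPM. Among them, Gata1, the master regulator of red cell precursors, was listed at 0 in all vehicle, combination and sham mice and reached at most 0.0586 TPM with PLX3397 and 0.116 TPM with Anakinra. Klf1, the activator of adult beta globin, averaged 0.504 TPM with vehicle and 0.257 TPM with PLX3397 and overlapped between these groups. It averaged 0.240 TPM with Anakinra, 0.185 TPM with the combination and 0.340 TPM in sham, so it was also low without PLX3397. Slc4a1 (band 3, the anion exchanger of the red cell membrane) averaged 0.0695 TPM with vehicle, 0.0682 TPM with Anakinra and 0.082 TPM in sham, 0.0109 TPM with PLX3397 and was listed at 0 in every mouse of the combination. These values are too low for a test, and the embryonic genes Hbb-bh1, Hbb-bh2 and Hba-x were listed at 0 in all mice.

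Among the 48 list genes tested, 4 fell and 2 rose with PLX3397 versus vehicle at an adjusted p below 0.05 in the limma fit, with a list median log2 fold change of 0.04. In this comparison 6.66% of all genes tested were called lower and 3.23% higher, and the median over all genes was 0.01. With PLX3397+Anakinra versus Anakinra, 6 list genes fell and 5 rose (list median 0.04), against 8.10% of all genes called lower and 4.67% higher (median 0.03). The falls made up 8.33% and 12.5% of the 48 genes. None was as large as that of the globins, the strongest being -0.91 and -0.95, both of Fam46c. In all, 4 list genes fell in both comparisons, and the share of all genes that fell in both was not taken.

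Fam46c, which stabilises mRNAs and is abundant in late erythroid and plasma cells, fell from 19.3 ± 3.33 TPM (SD, n = 5) with vehicle to 9.81 ± 1.95 TPM (SD, n = 5) with PLX3397 (adjusted p = 1.29e-05, limma). In the combination it fell against Anakinra by 0.95 on the log2 scale (adjusted p = 4.16e-06, limma). Unlike the globins it was at its lowest in sham, 2.07 ± 0.465 TPM (SD, n = 4). Tal1 and Lmo2, partners in a transcription complex of blood and endothelial cells, fell by 0.51 (adjusted p = 0.00994, limma) and 0.44 (adjusted p = 0.000101, limma) with PLX3397, and by 0.51 (adjusted p = 0.00756, limma) and 0.33 (adjusted p = 0.00195, limma) with the combination against Anakinra. Their sham means were 1.48 and 31.7 TPM, below the PLX3397 means of 1.89 and 39.1 TPM. Gpx1, an antioxidant enzyme of many cells, fell by 0.20 (adjusted p = 0.018, limma) and 0.29 (adjusted p = 0.000529, limma), and the first call was lost without vehicle mouse J18B or J19B or PLX3397 mouse J01, and with only these groups in the fit (adjusted p = 0.052 to 0.102, limma). Ube2l6, a ubiquitin-like conjugating enzyme, and Tmem14c, a mitochondrial porphyrin carrier, fell by 0.82 and 0.18 in the combination against Anakinra (adjusted p = 5.41e-05 and 0.00809, limma). Icam4 rose by 0.66 with PLX3397 versus vehicle (adjusted p = 0.026, limma) from a level of 0.558 TPM, a call lost without any 1 of vehicle mice J01B and J19B and PLX3397 mice J01, J02 and J12 (log2 fold change 0.62 to 0.63), and the value was 1.25 with 0.1 TPM added. The skeleton genes Sptb, Dmtn and Tmod1 and the globin switching factor Bcl11a rose by 0.17 to 0.25 with the combination against Anakinra. Without Anakinra mouse J21, or without combination mouse J17, 0 genes rose and 6 fell in that comparison, and after median-ratio rescaling of the libraries 1 rose and 6 fell.

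Kit and its ligand, erythropoietin receptor and the general heme enzymes did not pass the test. These are mRNA levels in brain tissue, and neither the activity of KIT nor progenitors in the marrow were measured. Kit averaged 20.9 TPM with vehicle, 21.6 TPM with PLX3397, 19.1 TPM with Anakinra and 20.8 TPM with the combination, with log2 fold changes of 0.04 (SE 0.07, adjusted p = 0.768, limma) without and 0.13 (SE 0.07, adjusted p = 0.236, limma) with Anakinra. Kitl, encoding stem cell factor, gave 0.03 and 0.13 (both SE 0.07), and Epor gave 0.04 and 0.17 (both SE 0.09). Alas1 averaged 45.6 TPM with vehicle and 45.0 TPM with PLX3397, a log2 fold change of -0.02 (SE 0.04, adjusted p = 0.856, limma), where Alas2 decreased. Fech, which inserts iron into heme, gave 0.06 and 0.03 (both SE 0.04). Of the 13 heme synthesis genes tested, 0 were called for PLX3397 versus vehicle and 1, Tmem14c, for the combination versus Anakinra. Of all genes tested, 6.66% and 8.10% were called lower and 3.23% and 4.67% higher in these comparisons. The brain globins Ngb (neuroglobin, 11.6 TPM with vehicle and 12.0 TPM with PLX3397) and Cygb (cytoglobin, 64.9 and 73.9 TPM) were not called lower, and Cygb rose by 0.19 on the log2 scale (adjusted p = 0.00874, limma). Mb (myoglobin) averaged 0.796 TPM with vehicle, 0.806 TPM with PLX3397, 0.640 TPM with Anakinra and 0.174 TPM with the combination. It was not called in these comparisons and was lower with the combination than with vehicle (log2 fold change -0.61, adjusted p = 0.0196, limma).

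**Figure D4:**
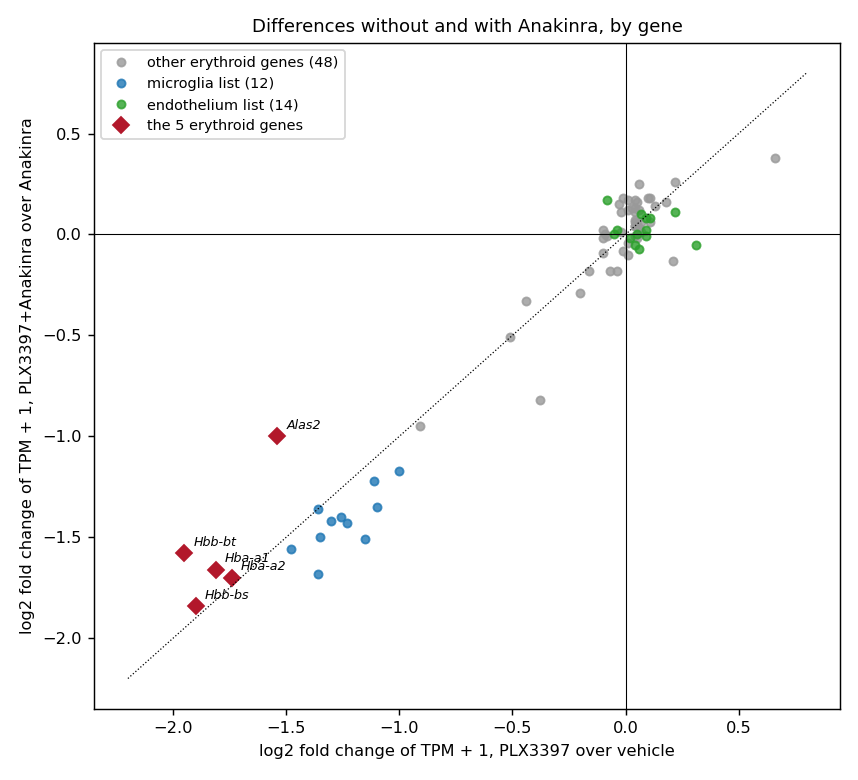
Log2 fold change of TPM + 1 with PLX3397 over vehicle (horizontal) and with PLX3397+Anakinra over Anakinra (vertical), 1 point per gene, for the 5 erythroid genes, 48 other erythroid genes, 12 microglial and 14 endothelial genes, with a dotted line of equality. The other erythroid genes sit around 0 with a list median of 0.04 in both, the microglial genes between -1.74 and -1.00 on the horizontal axis, and the 4 globins at -1.95 to -1.74.

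The remaining comparisons of the list genes are given beside those of the 5 genes. Vehicle versus sham gave 15 higher (31.2%) and 19 lower (39.6%) of the 48 list genes, beside 26.6% and 27.7% of all genes tested. Anakinra versus sham gave 16 higher (33.3%) and 17 lower (35.4%), beside 25.1% and 29.2% of all genes tested. PLX3397+Anakinra versus vehicle gave 4 higher and 5 lower, beside 7.88% and 9.60% of all genes. For Anakinra versus vehicle limma called 0 list genes (4 at an unadjusted p below 0.05), beside 0.0695% higher and 0.0463% lower of all genes. For the combination versus PLX3397 it called 0 (2 at an unadjusted p below 0.05), beside 0.00579% higher and 0.145% lower. The members' own log2 fold changes were -0.32 to -0.02 and -0.03 to 0.21 in these last comparisons, with overlap of the groups.

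Microglial genes also decreased with PLX3397, and their values are given beside those of the globins. All 12 markers on the list fell in both comparisons (limma, adjusted p below 0.05), beside 6.66% and 8.10% of all genes tested. They were led in level by C1qa and C1qb, and none was at 0 in a group mean. The summed level of the 12 ranged from 4031 to 5688 TPM with vehicle and 1870 to 2996 TPM with PLX3397. It ranged from 4533 to 5048 TPM with Anakinra and 1571 to 2053 TPM with the combination. In sham, however, it ranged from 646 to 691 TPM, below every PLX3397-treated mouse, while the summed globins in sham ranged from 2138 to 3186 TPM, above every PLX3397-treated mouse (605 to 1069 TPM). Among the vehicle mice, J17B was lowest in both sums. C1qa and C1qb weighed most in the microglial sum, and not every marker followed its order. Against sham, limma called 9 of the 12 markers higher and 2 lower in each PLX3397-treated group (adjusted p below 0.05). P2ry12 averaged 28.5 TPM in sham, above its means of 16.1 TPM (PLX3397) and 16.7 TPM (combination). Siglech averaged 10.7 TPM in sham, above 6.18 TPM (PLX3397) and 6.43 TPM (combination). The part of the microglial decrease in that of the globins was not tested.

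**Figure D5:**
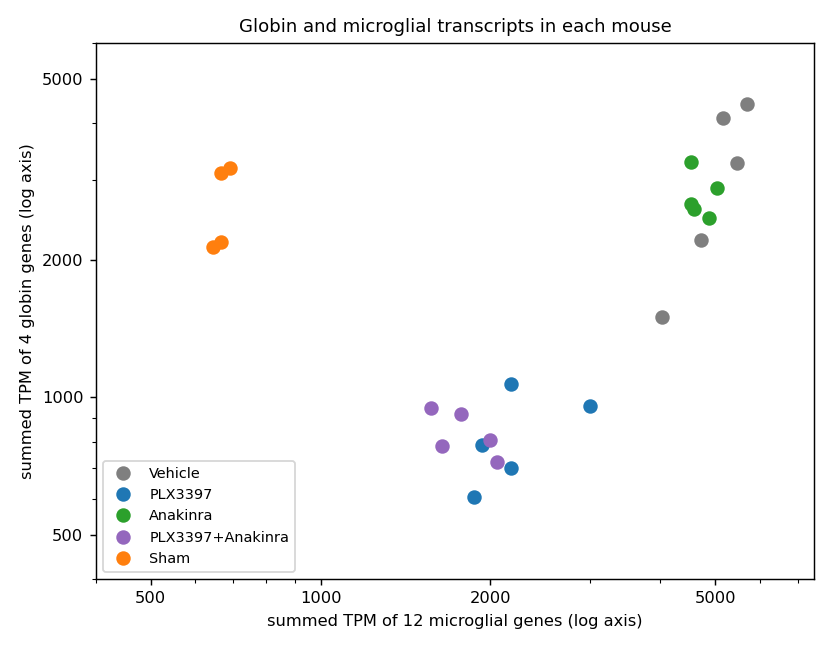
Summed TPM of the 4 globin genes against summed TPM of 12 microglial genes in each mouse, both axes logarithmic, 1 point per mouse coloured by group. Sham mice combine the lowest microglial sums (646 to 691 TPM) with globin sums of 2138 to 3186 TPM, and PLX3397-treated mice combine microglial sums of 1571 to 2996 TPM with globin sums of 605 to 1069 TPM. The microglial sum is led by C1qa and C1qb, and its order does not hold for P2ry12 and Siglech, whose means are higher in sham than in either PLX3397-treated group.

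Genes of vessels and of other blood cells differed between lists. Of all genes tested, 6.66% were called lower and 3.23% higher with PLX3397 versus vehicle. With the combination versus Anakinra, 8.10% were called lower and 4.67% higher. Of 14 endothelial genes 0 were called in either comparison by limma. The highest were Cldn5, a tight junction protein (log2 fold change -0.05, SE 0.09, and 0.00, SE 0.09), and Ly6c1 (0.09 and 0.08, both SE 0.08). The summed endothelial level ranged from 389 to 460 TPM with vehicle and from 420 to 471 TPM with PLX3397. Relative to this sum, the globins stood at 7.06 ± 2.62 (vehicle), 6.75 ± 0.924 (Anakinra), 7.75 ± 1.58 (sham), 1.81 ± 0.351 (PLX3397) and 1.98 ± 0.307 (combination), as mean ± SD with the same n. Of 7 platelet genes tested, 1 rose with PLX3397 versus vehicle and 1 fell with the combination versus Anakinra. Gp1bb, a chain of a platelet adhesion receptor, averaged 23.3 TPM with vehicle and 22.6 TPM with PLX3397. The gene that fell was Itgb3, an integrin chain of platelets and other cells, at 4.18 against 6.88 TPM (adjusted p = 5.02e-05, limma). With PLX3397 versus vehicle its log2 fold change was -0.10 (adjusted p = 0.584, limma), and the interaction had an adjusted p = 0.336. Of 4 neutrophil genes tested, 1 and 2 fell in these comparisons. Mmp8, a neutrophil collagenase, fell from 3.82 to 2.37 TPM with PLX3397 (adjusted p = 0.00209, limma) and stood at 0.663 TPM with the combination against 2.06 TPM with Anakinra (adjusted p = 1.51e-06, limma). Mmp9, a gelatinase, fell with the combination against Anakinra (1.48 against 4.58 TPM, adjusted p = 0.000251, limma). These 2 genes were named after their values were seen. S100a8 and S100a9, the highest of the list, averaged 11.5 and 5.69 TPM with vehicle, 18.9 and 8.12 TPM with PLX3397, 13.4 and 6.75 TPM with Anakinra and 10.7 and 5.81 TPM with the combination, and were called in neither comparison. Of 2 lymphocyte genes tested, 1 fell in each comparison. Cd4 averaged 16.4 TPM with vehicle, 17.4 TPM with PLX3397 and 15.5 TPM in sham, and was called in neither comparison. Cd79b fell from 2.20 to 1.08 TPM with PLX3397 versus vehicle (adjusted p = 0.00183, limma).

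Genes of heme and iron clearance were compared as the next step after red cell breakdown. Of 11 tested, 3 fell with PLX3397 versus vehicle and 5 with the combination versus Anakinra, and 0 rose. Of all genes tested, 6.66% and 8.10% were called lower and 3.23% and 4.67% higher in these comparisons. Ftl1, the ferritin light chain, fell by 0.55 (SE 0.12, adjusted p = 0.00409, limma) and 0.80 (SE 0.12, adjusted p = 3.88e-05, limma). Cd163, the macrophage receptor for hemoglobin bound to haptoglobin, fell from 1.45 to 0.305 TPM and from 1.46 to 0.308 TPM (log2 fold change -0.91 in both). Hmox1, which opens the heme ring, averaged 330 TPM with vehicle, 267 TPM with PLX3397, 382 TPM with Anakinra, 205 TPM with the combination and 8.09 TPM in sham. It was higher in vehicle than in sham mice by 5.09 on the log2 scale (adjusted p = 4.36e-14, limma), beside 0.12 to 0.22 for the 5 erythroid genes. These clearance genes are expressed by macrophages and microglia, and the part of those cells in the falls was not tested.

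Finally, genes that varied like the 5 genes from mouse to mouse were ranked by Pearson r between deviations from the group means over 24 libraries. The 5 genes themselves gave r of 0.93 to 0.98 with their own mean deviation. That mean includes the gene itself, and the copies within each globin pair share read windows. These r values are therefore raised in part by construction. Of 17262 other genes, the highest were Fbxo5 (r = 0.81), Gm38495 (0.78), Icam1 (0.77), Tekt1 (0.77), Npepl1 (0.76), Cyr61 (0.73), Nlrx1 (0.73), Ggta1 (0.72), Cln3 (0.72) and Cc2d1b (0.72). This order rested largely on vehicle mouse J17B, without which only Fbxo5 and Tekt1 of the 10 remained among the first 10. Without subtracting the group means, 1 of the 10, Gm38495, remained among the first 10. That list opened with Cd163 (r = 0.91), Gm38495 (0.89), Slc2a5 (0.88) and Crybb1 (0.88), all chosen after their values were seen. Their r within groups was 0.36, 0.78, 0.14 and 0.25. The points share library scaling and group structure, and these values are descriptions without a test.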

How the data were processed

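Paired-end RNA-seq libraries of 24 mice were used, 1 per mouse. Per the methods and labels, the authors trimmed and mapped the reads to mm10 (GRCm38) with the CLC software; the authors deposited TPM, which sums to 1000000 in each library. The methods add that the software calls this unit CPM; the most common value made up at most 0.036% of a library's values above 0, so the values do not step by whole reads and are scaled per gene. Depth is therefore unknown. A second full table differed by at most 7.6e-04 TPM and served as an alternative, and the annotated table with the authors' own p-values and F values was not used. Groups follow the labelled treatment.

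The members and gene lists were chosen with earlier results of these data known. Log2(TPM + 1) of all 17267 genes averaging 0.5 TPM or more was fitted with limma 3.58.1 in R 4.3.3 (1 mean per group, trended variance, Benjamini-Hochberg adjustment over all genes tested), after a test on simulated data. Ratios were compared by exact two-sided permutation tests, adjusted over 16. The limma p-values set a group difference against the spread between mice within groups, pooled over the groups. The permutation p-values rank a difference among all reassignments of the mice to the 2 groups. Members, list genes called in either PLX3397 comparison (up to 10 per list), 10 fixed erythroid genes, the 10 genes most like the members and the 2 highest genes of the blood, endothelial and microglial lists were named by rule, and other genes were named after their values were seen. Alternatives were another pseudocount, other filters, median-ratio scaling, globins left out of the total, the rounded table, only 2 groups per fit, each mouse left out and the criteria of the study. Promoters came from RefSeq (GRCm38.p6) and transcripts from GENCODE vM21. Some genes of the lists are counted but not reported here by name.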

Additional observations from a re-analysis of the deposited data

Results flagged for a closer look

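Of 45 sets of values checked, 1 held a mouse set apart from its group. The ratio of Hba-a2 to Hba-a1 TPM in sham mouse J08 was 0.821, while the other sham mice lay between 0.717 and 0.735, and its gap to the nearest mouse was 0.83 of the group's range. Chance alone sets about 1 in 20 such groups apart. The PLX3397 mouse J01, at 0.909, and mouse J12, at 0.814, reached similar or higher ratios. The reading frames of these genes differ at 1 base, so the ratio carries the uncertainty of how reads were split between them.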

How the results depend on the processing

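The median log2 fold change of the 5 genes kept its direction under every alternative in the comparisons of a PLX3397-treated group with a group not given PLX3397. With each mouse left out in turn it ranged from -2.05 (without vehicle mouse J17B) to -1.66 for PLX3397 versus vehicle and from -1.71 to -1.60 for the combination versus Anakinra. Without PLX3397 in either group, or with it in both, it ranged from -0.30 to 0.08 for Anakinra versus vehicle, from 0.00 to 0.38 for vehicle versus sham and from -0.03 to 0.20 for the combination versus PLX3397. For Anakinra versus sham the log2 fold changes with single mice left out ranged from -0.04 to 0.16 for Hba-a1, -0.01 to 0.17 for Hba-a2, 0.01 to 0.23 for Hbb-bs, -0.15 to 0.08 for Hbb-bt and -0.31 to 0.06 for Alas2, and none was called. Of these, Hbb-bs stayed above 0. Some log2 ratios also crossed 0 with single mice left out, namely those of alpha to beta globin for vehicle versus sham (-0.07 to 0.01), Hba-a2 to Hba-a1 for Anakinra versus sham (-0.01 to 0.06), Hbb-bt to Hbb-bs for PLX3397 versus vehicle (-0.15 to 0.03) and Alas2 to globins for vehicle versus sham (-0.04 to 0.21). Adding 1 TPM before the ratio was taken turned the Alas2 to globin difference of PLX3397 versus vehicle from -0.14 to 0.30 on the log2 scale, since the addition weighs more on the lower gene.

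The called genes among the other 48 erythroid genes numbered 4 to 7 for PLX3397 versus vehicle, 6 to 14 for the combination versus Anakinra, 7 to 12 for the combination versus vehicle, 30 to 36 for vehicle versus sham and 31 to 33 for Anakinra versus sham with single mice left out. The lowest count of 6 came without Anakinra mouse J21 and without combination mouse J17. Median-ratio rescaling gave 7 in place of 11 for the combination versus Anakinra. The criteria of the study, which ask for an unadjusted p below 0.05, a ratio of means above 2 and a difference above 4 TPM, gave 0 in place of 6, 1 in place of 11, 1 in place of 9, 2 in place of 34 and 2 in place of 33 in the same order. The calls of Bcl11a and Sptb were each lost in 9 alternatives, those of Icam4 (PLX3397 versus vehicle) and Tmod1 each in 5, that of Gpx1 (PLX3397 versus vehicle) in 4 and that of Dmtn in 2. Alas1 moved from 0.01 to -0.02 for the combination versus Anakinra with median-ratio rescaling, and to -0.01 or -0.02 without mouse J06 or J09. For PLX3397 versus vehicle, Epor ranged from -0.02 to 0.12, Kitl from -0.01 to 0.06 and Tmod1 from -0.02 to 0.05 with single mice left out. Of the 10 genes most like the members, 3 were shared with the Spearman order, 1 without subtracting group means and, chosen after seeing the data, 2 without vehicle mouse J17B. No paired analysis was possible because the groups share no replicate numbers that mark a shared animal. Depth is unknown, so counting error of low genes such as Alas2 could not be given.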
